A study of Homo sapiens with 9 samples.

Results

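Mitochondrial ribosomal proteins were examined in BL2 cells, an established human Burkitt lymphoma line that derives from germinal centre B cells. The genes were those whose symbol begins with MRPL or MRPS followed by a number, taken from probe sets that the platform annotation assigns to exactly 1 gene, with pseudogenes left out. The rule took 141 probe sets and 76 symbols. MRPL20-AS1 is an antisense RNA gene and is reported apart, which leaves 75 protein genes with 140 probe sets, of 19775 genes in the whole series. Of these, 50 encode proteins of the large subunit and 25 of the small subunit, counting MRPS30 and MRPS18A with the large subunit in which their proteins lie. Where several probe sets measured a gene, the brightest over the 9 arrays was used, and this choice did not look at the conditions.

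Total RNA was hybridised to HG-U133 Plus 2.0 arrays after 6 hrs with recombinant human CD40L (n = 3 arrays), after 6 hrs with lipopolysaccharide (LPS, n = 3) or from untreated control cells (n = 3). The sample labels give no culture time for the control cells, so they may not be matched to the 6 hrs. CD40L is a ligand on helper T cells whose receptor on B cells is CD40. LPS, a bacterial glycolipid, is sensed through a Toll-like receptor. All groups are the same cell line in the same serum-containing medium, and the 3 arrays of a condition come from 3 experimental batches. Values are levels on a generalised log2 scale, so that a difference of 1 is close to a doubling for bright probe sets. Array medians lay between 6.42 and 6.48. All 75 genes had mean levels between 8.25 and 12.29, above every array median. Of the B cell markers, 8 of 9 were measured at 8.83 (CD22) to 13.0 (MS4A1), while markers of T and NK cells lay at 6.17 to 6.77, of monocytes and macrophages at 5.88 to 6.67 and of fibroblasts at 5.80 to 7.94, the last being COL1A1. Of the 8 B cell markers, 6 were lower and 0 higher after CD40L (limma, adjusted p value at most 0.05), with a median log2 fold change of -0.45. The lowest were CD38 at -0.65, MME at -0.53 and BCL6 at -0.47. After LPS 4 were lower and 0 higher (median -0.26). The highest marker difference was 0.39 after CD40L and 0.31 after LPS, neither past the threshold. Of all probe sets, 1.87% were lower after CD40L and 0.892% after LPS. Of genes whose mean level lies in the range of the members, 6.04% and 3.22% were lower. The part of these changes in the results of the members was not tested. In such bulk RNA, a change in RNA per cell and a change in the mix of cells cannot be told apart.

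The mitochondrial ribosome translates the few messages encoded by mitochondrial DNA, all of them for subunits of the oxidative phosphorylation complexes. Its rRNAs come from mitochondrial DNA, whereas every one of its proteins is encoded in the nucleus, made in the cytosol and imported. Some of these proteins descend from proteins of the bacterial ribosome, and others were added to the ribosome in mitochondria. Activated B cells are known to enlarge their mitochondria as they begin to grow and divide. In the grouping used here, 30 of the large-subunit and 15 of the small-subunit genes were counted as homologues of bacterial ribosomal proteins. The other 20 and 10 were counted as mitochondria-specific. This grouping is approximate: MRPS18C was placed with the homologues, but MRPS18A and MRPS18B, which share its name, with the mitochondria-specific proteins.

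The promoters are shown for the genes that rose after CD40L and have 1 annotated start, and for the gene with the lowest difference. The RefSeq promoter table held windows of 300 bases (250 before to 50 after a start) for 67 of the 75 genes, 83 windows in all. Printed are the 250 bases before the start, 5′ to 3′ in the direction of the gene, on build GRCh38.p14: MRPL39 at chr21:25607482-25607731 (minus strand), MRPS26 at chr20:3045802-3046051 (plus), MRPL37 at chr1:54199917-54200166 (plus) and MRPL40 at chr22:19432295-19432544 (plus). Capitals mark a match on either strand to CCGGAAG, a core bound by ETS factors such as the NRF2 (GABP) complex, or to the E-box CACGTG, bound by MYC and related factors.
MRPL39: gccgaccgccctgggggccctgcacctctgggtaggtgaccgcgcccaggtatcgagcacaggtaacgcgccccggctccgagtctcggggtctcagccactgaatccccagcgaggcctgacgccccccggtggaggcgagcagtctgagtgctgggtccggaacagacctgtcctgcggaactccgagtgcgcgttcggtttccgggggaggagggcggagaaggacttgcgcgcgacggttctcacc
MRPS26: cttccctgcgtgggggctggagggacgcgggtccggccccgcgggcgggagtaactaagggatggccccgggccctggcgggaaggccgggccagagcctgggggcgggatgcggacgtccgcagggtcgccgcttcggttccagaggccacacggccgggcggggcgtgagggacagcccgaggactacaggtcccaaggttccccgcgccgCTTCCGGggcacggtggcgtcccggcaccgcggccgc
MRPL37: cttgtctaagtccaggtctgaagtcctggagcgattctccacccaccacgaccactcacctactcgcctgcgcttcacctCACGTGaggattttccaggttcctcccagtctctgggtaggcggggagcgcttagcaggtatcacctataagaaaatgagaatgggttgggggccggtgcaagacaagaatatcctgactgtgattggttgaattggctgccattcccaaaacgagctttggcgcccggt
MRPL40: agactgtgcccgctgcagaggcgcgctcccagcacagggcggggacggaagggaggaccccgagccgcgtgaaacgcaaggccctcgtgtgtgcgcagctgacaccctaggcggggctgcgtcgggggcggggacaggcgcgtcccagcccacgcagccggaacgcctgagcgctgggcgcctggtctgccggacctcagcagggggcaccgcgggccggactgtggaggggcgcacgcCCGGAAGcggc

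The upstream sequence of MRPS26 held CCGGAAG beginning 37 bases before the start, read from the opposite strand as CTTCCGG. That of MRPL40 held CCGGAAG on the strand of the gene, beginning 11 bases before the start. That of MRPL37 held CACGTG 170 bases before the start. None of the letters searched lay in the window of MRPL39, which had 69.6% G and C in the printed bases, against 77.2% for MRPS26, 54.4% for MRPL37 and 75.6% for MRPL40. Over all members, CCGGAAG was in 32 of 83 windows (38.6%), against 10.3% of all 35116 promoter windows. AAGATGGC, a core of the YY1 site, was in 22 windows (26.5%), against 2.89% of all windows. TGCGCANGC, a core of the site of NRF1, a regulator of nuclear genes for mitochondrial proteins, was in 11 windows (13.3%), against 4.39% of all. CACGTG was in 9 windows (10.8%), against 7.26%, and GGGANTTTC, part of the NF-κB site, in 3 windows (3.61%), against 1.28%. Both strands were read. The ETS and YY1 cores share the letters AAG at their ends, 10 windows held both, and 0 windows of the members held matches of different motifs that overlapped. A match says only that the letters are present. Of the 5 genes that rose after CD40L, MRPS26 had the ETS core, MRPL37 and MRPS2 the E-box and MRPL34 the NRF1 core in at least 1 of their windows, and 0 had the YY1 or the NF-κB letters.

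CD40L raised the level of 5 of the 75 genes and lowered 0. The genes were MRPL39, MRPS26, MRPL34, MRPS2 and MRPL37, with fold changes of 1.47, 1.36, 1.34, 1.24 and 1.17. Of all 54613 probe sets tested, 3.71% were higher and 1.87% lower after CD40L (limma, adjusted p value at most 0.05), and of the 5098 genes whose mean level lies in the range of the members 13.2% were higher and 6.04% lower. Set beside these shares, 5 of 75 is more than the share over all probe sets and less than the share among genes as bright. At an unadjusted p value under 0.05, 19 members were higher and 4 lower, against 10.3% higher and 5.48% lower of all probe sets and 29.6% and 11.7% of genes as bright. The median log2 fold change of the members was 0.07, against 0.01 for all probe sets and 0.06 for genes as bright, and 57 of 75 lay above 0 (52.3% of all genes, and 64.2% of genes as bright). After quantile normalisation the median of the members was 0.01, 4 were higher and 5 lower, and of all probe sets 3.13% were higher and 3.10% lower.

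MRPL39 encodes a mitochondria-specific protein of the large subunit that is related in sequence to threonyl-tRNA synthetase. Its level was 11.33, 11.39 and 11.35 in CD40L treated cells of batches 1, 2 and 3, 11.16, 11.00 and 11.18 in LPS treated cells and 10.83, 10.76 and 10.80 in control cells. All CD40L arrays lay above all LPS arrays, and all LPS arrays above all control arrays. The log2 fold change was 0.56 after CD40L (SE 0.060, limma adjusted p = 2.36e-05) and 0.32 after LPS (adjusted p = 0.00987). Between CD40L and LPS the difference of 0.24 did not pass the threshold (adjusted p = 0.159). A second probe set of the gene was dim, with a mean level of 5.93, and its difference after CD40L was 0.05 (adjusted p = 0.880).

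MRPS26 encodes a mitochondria-specific protein of the small subunit. Its level was 10.51, 10.26 and 10.13 in CD40L treated cells, 10.18, 10.06 and 10.09 in LPS treated cells and 10.01, 9.70 and 9.85 in control cells. CD40L arrays and LPS arrays each lay above every control array, and CD40L was above LPS within each batch. The log2 fold change was 0.44 after CD40L (SE 0.066, adjusted p = 0.000533) and 0.26 after LPS, which missed the threshold (adjusted p = 0.0565). A dimmer probe set at a mean level of 6.48 gave -0.09 for CD40L and did not pass.

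MRPL34 encodes the homologue of bacterial L34, a small basic protein of the large subunit. Its level was 10.22, 10.10 and 10.09 in CD40L treated cells, 9.75, 9.60 and 9.92 in LPS treated cells and 9.74, 9.74 and 9.65 in control cells. The CD40L arrays stood apart from both other groups, whereas LPS and control arrays overlapped. The log2 fold change was 0.43 after CD40L (SE 0.072, adjusted p = 0.00166), and 0.05 after LPS with a 95% interval of -0.11 to 0.20. MRPL34 was the only member that differed between CD40L and LPS (0.38, adjusted p = 0.0248), a call that was lost in 9 of 18 alternatives, with an adjusted p value of up to 0.766 without batch 1.

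MRPS2 encodes the homologue of bacterial S2 in the small subunit. Its level was 10.05, 10.01 and 9.83 in CD40L treated cells, 9.99, 9.88 and 9.68 in LPS treated cells and 9.93, 9.44 and 9.62 in control cells. Batch 1 was high in all conditions and the CD40L and control groups overlapped. The log2 fold change was 0.30 after CD40L (SE 0.077, adjusted p = 0.0267), with 0.13, 0.58 and 0.21 within batches 1, 2 and 3. Without the control array of batch 2 it was 0.17 (adjusted p = 0.163). The call of MRPS2 was lost in 9 of 18 alternatives, among them omission of batch 1, of batch 2 or of batch 3.

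MRPL37, a mitochondria-specific protein of the large subunit, is a paralogue of MRPS30. Its level was 11.00, 10.97 and 10.91 in CD40L treated cells, 10.85, 10.77 and 10.96 in LPS treated cells and 10.69, 10.70 and 10.82 in control cells. The CD40L arrays lay above every control array, with a log2 fold change of 0.22 (SE 0.061, adjusted p = 0.0410). This call was lost in 13 of 18 alternatives, where the difference ran from 0.17 to 0.25. MRPS30 itself had a difference of 0.04 (adjusted p = 0.875).

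**Figure D1:**
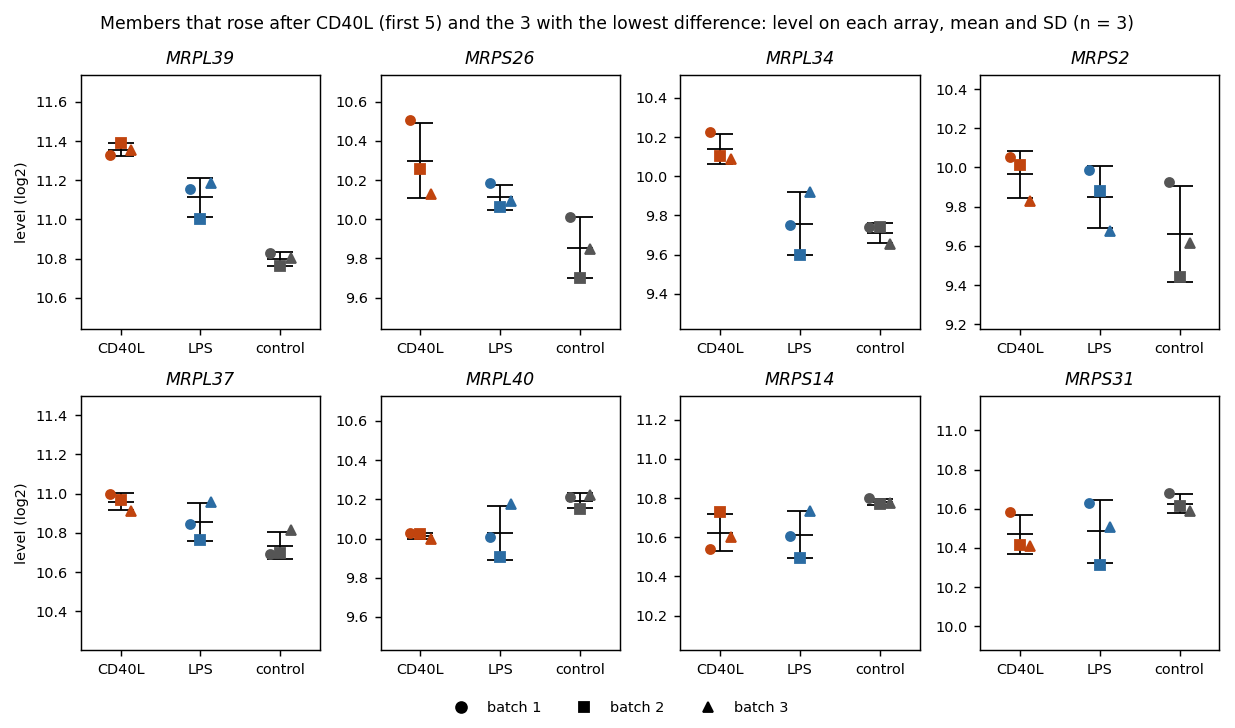
Level (log2) of 8 members on each array of CD40L treated, LPS treated and control cells, with batches as marker shapes and the mean and SD of each group (n = 3). The first 5 rose after CD40L, and MRPL40, MRPS14 and MRPS31, which had the lowest differences, did not pass the threshold in either direction.

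Several genes lay just outside the threshold for CD40L. MRPL15, homologue of bacterial L15, had a log2 difference of 0.23 (adjusted p = 0.0508), MRPL12 one of 0.23 (0.0554) and MRPL58 one of 0.22 (0.0647). MRPL12 forms the flexible stalk that recruits translation factors to the ribosome and also binds the mitochondrial RNA polymerase. Its level was 10.88, 10.78 and 10.70 in CD40L treated cells, 10.80, 10.66 and 10.70 in LPS treated cells and 10.70, 10.36 and 10.61 in control cells, where batch 2 was the lowest array. MRPL58, also called ICT1, is a peptidyl-tRNA hydrolase that releases stalled ribosomes and sits in the large subunit. MRPL46 and MRPL50 followed with 0.19 (adjusted p = 0.0931) and 0.23 (0.0955).

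At the other end, 0 members passed the threshold downwards after CD40L. The 5 lowest differences were those of MRPL40 (-0.18), MRPS14 (-0.16), MRPS31 (-0.16), MRPL33 (-0.14) and MRPS27 (-0.12), with a lowest adjusted p value of 0.126, that of MRPL40. MRPL40 had levels of 10.03, 10.02 and 10.00 in CD40L treated cells, 10.01, 9.90 and 10.18 in LPS treated cells and 10.21, 10.15 and 10.22 in control cells. MRPS14, homologue of bacterial S14, had 10.54, 10.73 and 10.60 in CD40L treated cells, 10.61, 10.50 and 10.74 in LPS treated cells and 10.80, 10.77 and 10.78 in control cells. In these 5 genes every CD40L array lay below every control array. Without overlap of the groups, 20 members were higher and 5 lower after CD40L, against 10.9% and 8.63% of all genes. The share without overlap among genes as bright as the members was not computed for any comparison. After quantile normalisation these same 5 genes passed the threshold downwards, and MRPL37 was no longer past it.

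**Figure D2:**
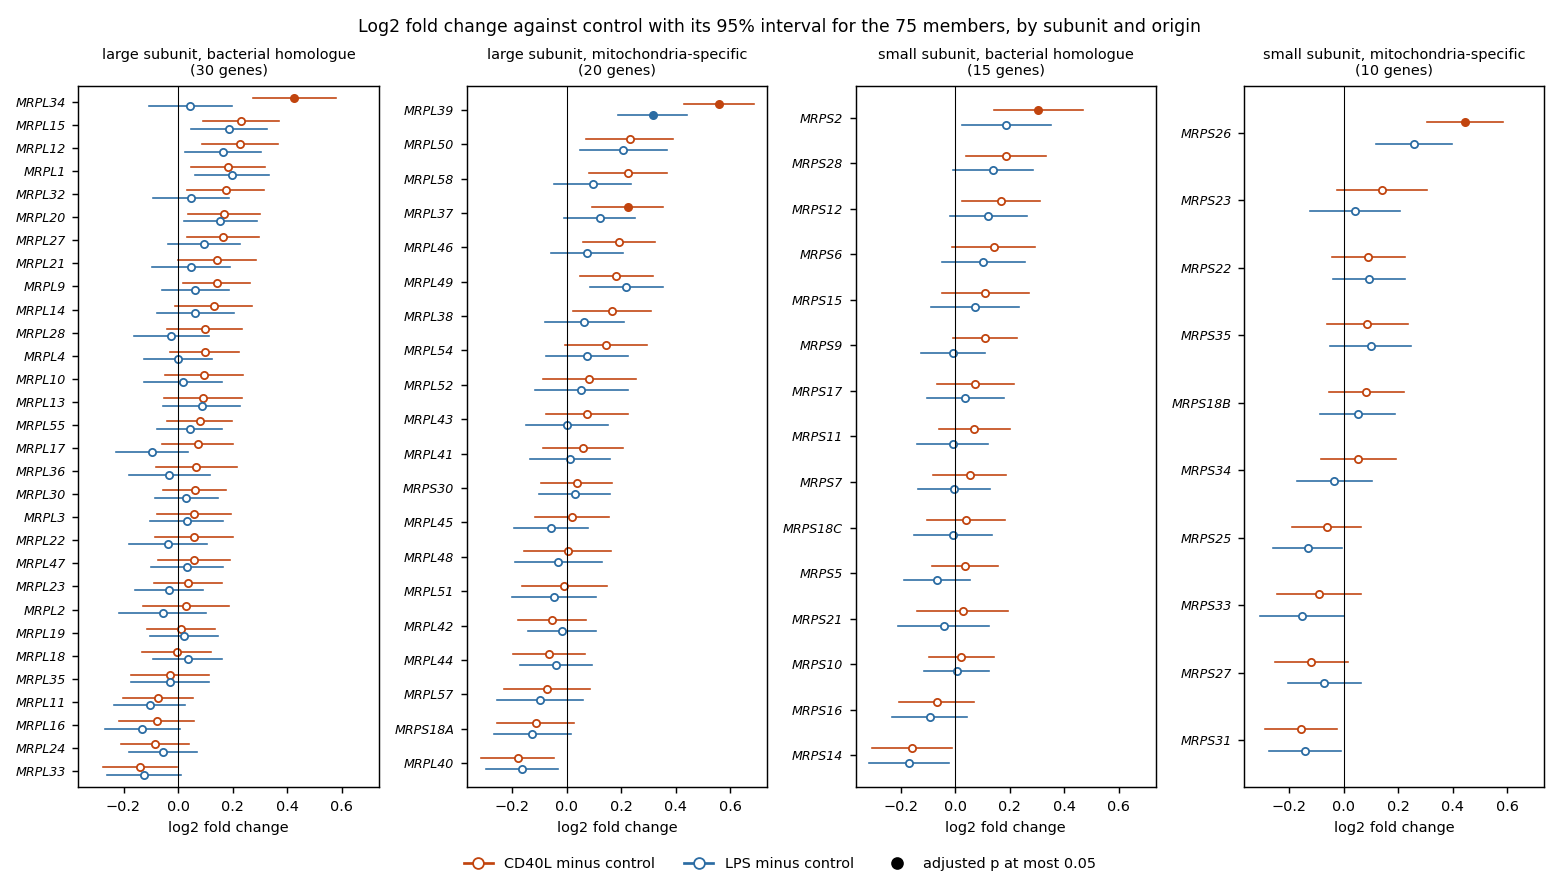
Log2 fold change against control with its 95% interval for the 75 genes, in 4 panels by subunit and origin, for CD40L and for LPS. Filled points have an adjusted p value of at most 0.05, which are 5 for CD40L and 1 for LPS, and most intervals cover 0.

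The classes of proteins gave similar values after CD40L. The 50 large-subunit genes had a median log2 fold change of 0.07 with 3 higher, and the 25 small-subunit genes one of 0.07 with 2 higher. Homologues of bacterial proteins had medians of 0.08 (1 of 30 higher) in the large and 0.07 (1 of 15) in the small subunit, and mitochondria-specific proteins 0.07 (2 of 20) and 0.07 (1 of 10). The difference between classes was not tested. The standard error of a single gene lay between 0.055 and 0.081, and for 72 of 75 genes the 95% interval of the CD40L difference stayed within -0.5 and 0.5.

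LPS raised 1 member, MRPL39, and lowered 0, with 1.17% of all probe sets higher and 0.892% lower in this comparison. Of genes as bright as the members, 4.55% were higher and 3.22% lower. At an unadjusted p value under 0.05, 9 members were higher and 4 lower, against 7.06% higher and 4.57% lower of all probe sets and 20.6% and 11.4% of genes as bright. MRPL39 missed the threshold without batch 1 (adjusted p = 0.150), without batch 3 (0.158) and without the LPS array of batch 1 (0.121) or batch 3 (0.107), with log2 fold changes of 0.28 to 0.31. The median log2 fold change was 0.02, against 0.03 for genes as bright, with 43 of 75 above 0 (50.9% of all genes, and 60.2% of genes as bright), and it was -0.02 after quantile normalisation. Behind MRPL39 and MRPS26, the largest differences were those of MRPL49 (0.22), MRPL50 (0.21) and MRPL1 (0.20), with adjusted p values of 0.103, 0.231 and 0.153. MRPL49 had levels of 10.42, 10.39 and 10.54 in LPS treated cells and 10.27, 10.16 and 10.26 in control cells. MRPL1, homologue of the bacterial protein of the L1 stalk at the tRNA exit, had 10.07, 9.97 and 10.14 in LPS treated cells and 9.96, 9.78 and 9.84 in control cells. Both genes were higher on every LPS array than on any control array. The lowest differences were those of MRPS14 (-0.17), MRPL40 (-0.16), MRPS33 (-0.15), MRPS31 (-0.14) and MRPS25 (-0.13), with adjusted p values between 0.269 and 0.442. Without overlap of the groups, 6 members were higher and 3 lower, against 7.96% and 7.75% of all genes. For all 75 genes the 95% interval of the LPS difference stayed within -0.5 and 0.5. The comparisons of CD40L and of LPS share the control arrays.

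Directly between the stimuli, 1 member was higher after CD40L than after LPS (MRPL34) and 0 were lower, with 0.3% of all probe sets higher and 0.0952% lower. Of genes as bright as the members, 1.1% were higher and 0.333% lower. At an unadjusted p value under 0.05, 5 members were higher and 0 lower, against 2.94% higher and 2.04% lower of all probe sets and 7.08% and 3.41% of genes as bright. The median difference of CD40L minus LPS was 0.05, against 0.005 for all probe sets and 0.02 for genes as bright. Above 0 lay 62 of 75 genes (55.0% of all genes, and 63.6% of genes as bright). Without overlap, 4 genes were higher and 0 lower, against 5.8% and 4.07% of all genes, namely MRPL34, MRPL39, MRPS5 and MRPS9.

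The LPS arrays of batches 2 and 3 stood apart for many of the members, in opposite directions. The median level of the 75 genes was 10.38, 10.40 and 10.34 in CD40L treated cells, 10.34, 10.16 and 10.44 in LPS treated cells and 10.30, 10.20 and 10.26 in control cells of batches 1, 2 and 3. The LPS array of batch 2 held the lowest value of 39 of the 75 genes, as it did for 17.9% of genes as bright, and the LPS array of batch 3 held the highest value of 31, against 12.3% of genes as bright. The control array of batch 2 was the lowest for 21 genes, against 32.9% of genes as bright. The median SD within a group was 0.065 for CD40L, 0.12 for LPS and 0.064 for control. The widest SD was 0.25 for MRPL36 within LPS (10.89, 10.82 and 11.29) and 0.25 for MRPS2 within control.

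**Figure D3:**
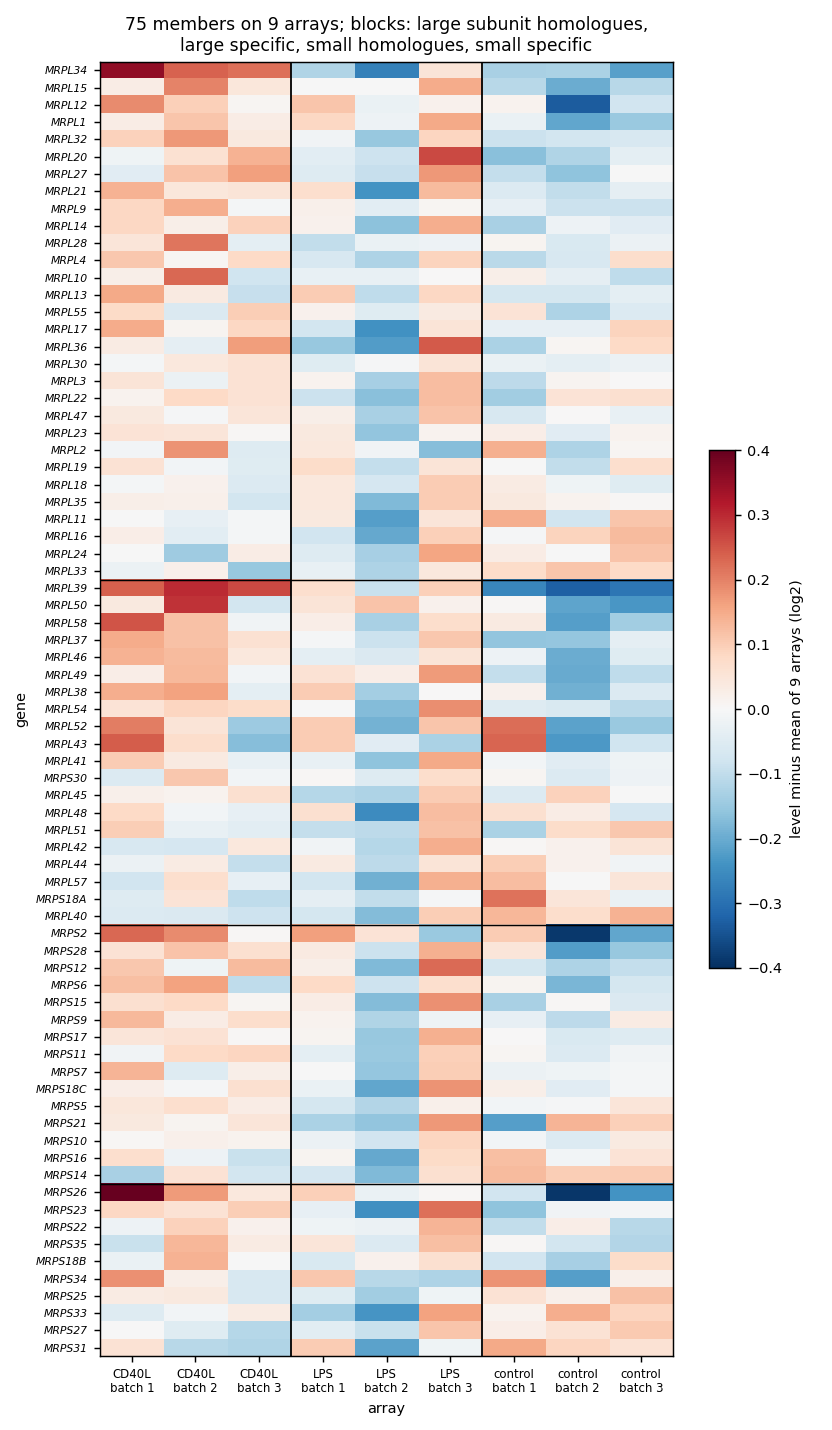
Level of each of the 75 genes (rows) on each of 9 arrays (columns), as the difference from the mean of the gene over all arrays on the log2 scale, with colours capped at -0.4 and 0.4. The LPS column of batch 2 is mostly blue and that of batch 3 mostly red. MRPL39 and MRPL34 are red across the CD40L columns. MRPS26 is red in those of batches 1 and 2 and close to its mean of 10.09 in batch 3 (10.13).

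Within single batches, the differences ran in different directions. CD40L minus control had member medians of 0.06, 0.08 and 0.02 in batches 1, 2 and 3, with 54, 57 and 42 of 75 genes above 0. LPS minus control had medians of 0.01, -0.09 and 0.10, with 39, 29 and 60 genes above 0. CD40L minus LPS had medians of 0.05, 0.18 and -0.08, with 58, 73 and 11 genes above 0, so the direction of the whole set between the stimuli was not the same in all batches. MRPL34 was higher after CD40L than after LPS in every batch, by 0.47, 0.50 and 0.17. Without batch 2, or without its LPS array, the median of CD40L minus LPS was -0.01 and without batch 3 it was 0.12. Against control, 32 genes were above 0 in all 3 batches and 9 below after CD40L, and 15 and 9 after LPS. The shares of all genes for these counts were not computed.

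**Figure D4:**
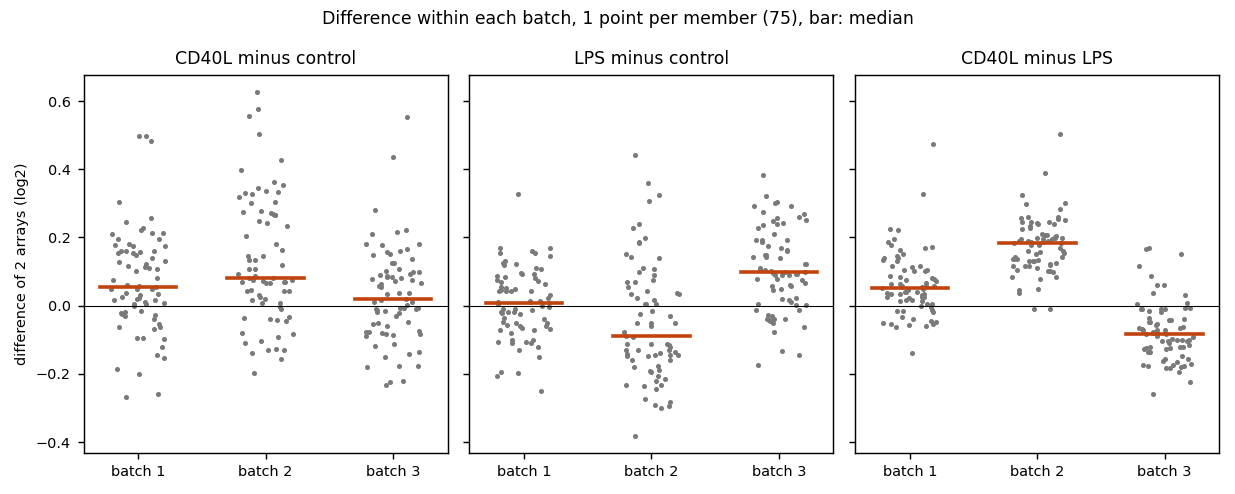
Difference between 2 arrays of the same batch (log2) for each of the 75 genes, with the median as a bar, in a panel for each comparison. The bars of CD40L minus control are above 0 in all batches, whereas those of the other comparisons change sign between batches 2 and 3.

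The cytosolic ribosomal proteins and the oxidative phosphorylation subunits deviated in the direction of the members on some arrays and against it on others. The LPS arrays of batches 2 and 3 deviated from the mean of all arrays by -0.12 and 0.10 for the members, by -0.21 and 0.23 for the cytosolic ribosomal proteins and by -0.15 and 0.14 for the oxidative phosphorylation subunits, against -0.03 and 0.00 for genes as bright. On the control array of batch 2, however, the median deviation was -0.05 for the members and -0.08 for genes as bright. It was 0.19 for the cytosolic ribosomal proteins and 0.08 for the oxidative phosphorylation subunits. Whether these array differences contributed to the calls of single members was not tested.

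With several probe sets per gene, 9 of the 140 probe sets were higher after CD40L, 2 after LPS and 1 for CD40L minus LPS, and 0 were lower in any comparison. Of all probe sets, 3.71%, 1.17% and 0.3% were higher in these comparisons, and 1.87%, 0.892% and 0.0952% lower. Whether the counts differ from these shares was not tested. In 6 genes some probe sets passed for CD40L while others did not. A dimmer probe set of MRPS12, homologue of bacterial S12 in the decoding centre, rose by 0.26 (adjusted p = 0.00956), against 0.17 for its brightest (adjusted p = 0.200). One dimmer set of MRPL50 rose by 0.35 (adjusted p = 0.0188), with levels of 9.45, 9.55 and 9.08 in CD40L treated cells, 9.32, 9.28 and 9.16 in LPS treated cells and 9.21, 8.88 and 8.95 in control cells. A dimmer set of MRPL2, homologue of bacterial L2, rose by 0.21 (adjusted p = 0.0407), against 0.03 for the brightest. MRPS25 had probe sets that disagreed in sign. Its set at a mean level of 6.90 rose by 0.28 after CD40L (adjusted p = 0.0102) and by 0.29 after LPS (adjusted p = 0.0164), whereas its brightest set at 10.1 had -0.06 and -0.13 and did not pass. MRPL39 and MRPS26 also had a dim set that did not pass beside the bright one that did. The antisense gene MRPL20-AS1, at a mean level of 8.28, had differences of 0.04 after CD40L and 0.04 after LPS, neither past the threshold.

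Among genes that build or serve the mitochondrial ribosome, several passed the threshold after CD40L. Set beside the counts of these lists, 3.71% of all probe sets, 5.03% of all genes and 13.2% of genes as bright as the members were higher. The last share is matched to the members and not to these lists. Some list genes are dimmer than every member, such as PARS2 at a mean level of 7.50 and SARS2 at 7.82. Whether any list differed from these shares was not tested. Of 28 assembly factors 4 were higher and 0 lower, with a median log2 fold change of 0.11. MPV17L2, which associates with the large subunit during assembly, rose by 0.30 (adjusted p = 0.00772) after CD40L and by 0.27 (adjusted p = 0.0351) after LPS. TRUB2, a pseudouridine synthase, FASTKD2, an RNA-binding protein, and DHX30, a helicase of mitochondrial RNA granules, rose by 0.27, 0.24 and 0.22 after CD40L (adjusted p = 0.0412, 0.0447 and 0.0402). Their levels after CD40L were 9.11, 8.97 and 8.77 for TRUB2, against 8.80, 8.52 and 8.73 in control cells.

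Of 15 genes for transcription and maintenance of mitochondrial DNA 4 were higher and 0 lower after CD40L (median 0.10). POLRMT, the mitochondrial RNA polymerase, had levels of 10.20, 10.01 and 9.86 in CD40L treated cells, 10.01, 9.85 and 9.70 in LPS treated cells and 9.85, 9.20 and 9.61 in control cells. Its CD40L arrays lay above its control arrays by a narrow margin and the log2 fold change was 0.47 (SE 0.090, adjusted p = 0.00460). PNPT1, an RNA exonuclease, ELAC2, which trims tRNA ends, and POLG2, a subunit of the mitochondrial DNA polymerase, rose by 0.25, 0.25 and 0.23. Of 10 nuclear regulators of mitochondrial genes 1 was higher, ESRRA with 0.36 (adjusted p = 0.0158), and the median was 0.14.

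Of 20 mitochondrial tRNA synthetases 3 were higher and 0 lower (median 0.03), namely SARS2, LARS2 and PARS2, which charge tRNAs with serine, leucine and proline, with 0.28, 0.28 and 0.23. Of 16 translation factors 1 was higher, MTFMT, which formylates the initiator methionyl-tRNA, with 0.28 (adjusted p = 0.00915), and the median was 0.10. Of 4 further ribosomal proteins that carry other symbols, 0 passed and the median was -0.07. After LPS 1 of these genes passed, MPV17L2, and for CD40L minus LPS 0 did. After LPS 1.17% of all probe sets and 4.55% of genes as bright as the members were higher. Of these calls after CD40L, those of POLRMT and MPV17L2 were lost in 3 of 17 alternatives, that of MTFMT in 5, those of LARS2 and PNPT1 in 6, of SARS2, ELAC2 and ESRRA in 8, of PARS2 in 11, of TRUB2 and POLG2 in 12, of DHX30 in 13 and of FASTKD2 in 14. The call of MPV17L2 after LPS was lost in 12 of 17.

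Of 70 nuclear-encoded oxidative phosphorylation subunits, 3 were higher and 1 lower after CD40L (median -0.06). Of all probe sets 3.71% were higher and 1.87% lower, and of genes as bright as the members 13.2% and 6.04%. NDUFV2 and NDUFV3 of complex I rose by 0.37 and 0.28, CYC1, the cytochrome c1 of complex III, rose by 0.34, and NDUFB5 of complex I fell by 0.31 (adjusted p = 0.00736). CYC1 also rose after LPS by 0.27 (adjusted p = 0.0313), a call lost in 11 of 17 alternatives. The calls of NDUFV2 and CYC1 after CD40L were lost in 1 of 17, and those of NDUFB5 and NDUFV3 in 4. Of 79 listed cytosolic ribosomal protein genes only 53 were measured, and 0 of these passed in any comparison. At an unadjusted p value under 0.05, 0 were higher and 1 lower after CD40L, 0 and 2 after LPS, and 0 and 0 between CD40L and LPS. The matching shares over the whole array were 10.3% up and 5.48% down for CD40L. For LPS they were 7.06% and 4.57%, and for CD40L minus LPS 2.94% and 2.04%. The median of the 53 genes was -0.12 after CD40L and -0.13 after LPS. For CD40L it was 0.11, -0.38 and -0.09 within batches 1, 2 and 3. The members and the cytosolic ribosomal proteins thus had medians of opposite sign after CD40L in the pooled fit, a difference that was not tested.

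**Figure D5:**
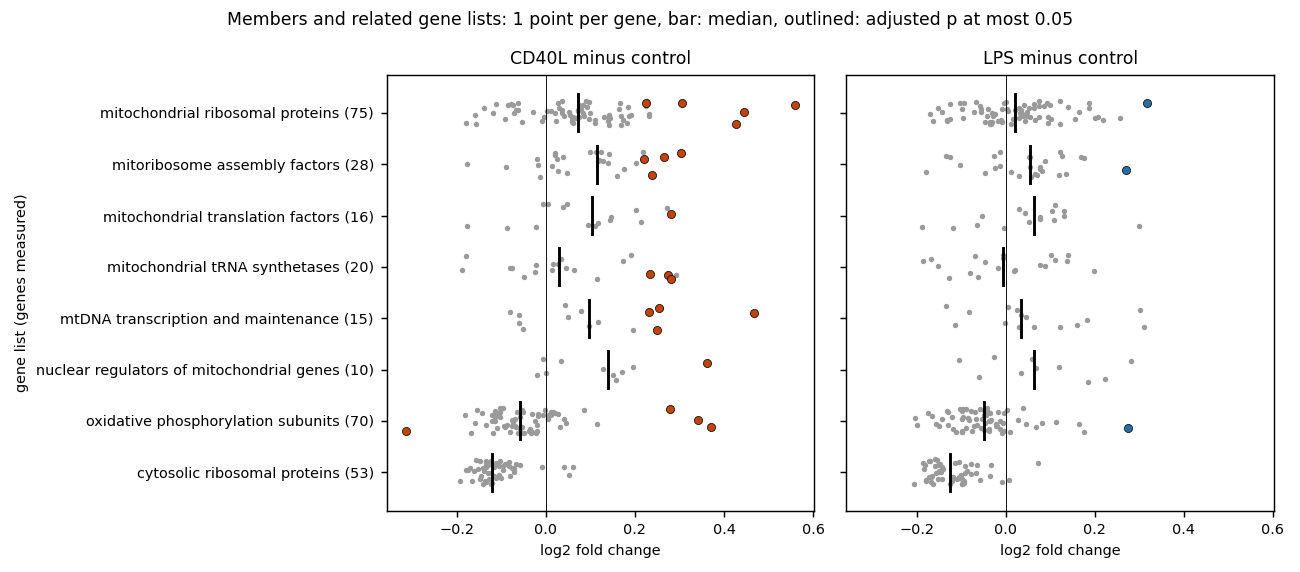
Log2 fold change after CD40L (left) and after LPS (right) for the 75 members and for 7 further gene lists, 1 point per gene with the median as a bar. Outlined points have an adjusted p value of at most 0.05, and the medians of the cytosolic ribosomal proteins (-0.12 and -0.13) lie below those of the members (0.07 and 0.02).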

How the data were processed

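RNA of BL2 cells was hybridised to 9 HG-U133 Plus 2.0 arrays. According to the study's methods the authors normalised probe intensities by variance stabilisation and summarised probe sets by median polish. The deposited unit is therefore a generalised log2 value, which compresses differences of dim probe sets, and it was used without change. Precision is limited by having 3 arrays a group. Of 54675 probe sets, 62 AFFX controls were left out. Names come from GEO's platform table, with 41091 probe sets naming 1 gene, 1801 several and 11721 none. Symbols were looked up in the RefSeq table of GRCh38.p14 (0 changed).

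Limma 3.58.1 (R 4.3.3) was fitted with condition and batch over all arrays. All tests were two-sided, with Benjamini-Hochberg adjustment over 54613 probe sets and a threshold of 0.05. Residual degrees of freedom were 4 and prior ones 11.6. Samples are paired by batch, since sample names number the batches and the study's methods model them. Deviations of arrays of the same batch correlated at -0.181 for CD40L and control and at -0.0401 for control and LPS in batch 2, and at 0.183 to 0.466 otherwise. Between different batches the correlations ran from -0.486 to 0.383. The control array of batch 2 correlated at 0.383 with CD40L and at 0.323 with LPS of batch 3, above its values within batch 2. The consensus correlation within a batch was 0.0724, so the pairing was weak. The paper describes the replicates as independent biological experiments, and the sample labels tell them apart by batch number. The p values measure the spread of these arrays that is left after condition and batch. With 4 residual against 11.6 prior degrees of freedom, the variance of a gene leans mostly on that of the other probe sets.

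The members and gene lists were chosen with earlier results of these data known. Genes as bright are the brightest probe sets of the 5098 genes whose mean lies within the range of the members, a range taken from these data. Named are all members past the threshold in any contrast, the 5 largest rises and falls against control, members whose probe sets disagree, and up to 4 genes past the threshold of each further list. Other members (such as MRPL15, MRPL12, MRPS30 and MRPL36) were named after their values were seen. The fit was tested on simulated data. Alternatives were a fit that ignores batches, a random batch effect (statmod 1.5.0), only the groups compared, quantile normalisation, median centring, a dim-probe filter, robust eBayes, omission of each batch or array, and the probe set of largest change. Promoter windows were searched in Python 3.11.15 and figures drawn with matplotlib 3.10.9.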

Additional observations from a re-analysis of the deposited data

Results flagged for a closer look

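MRPL34 was the only member whose CD40L and LPS effects differed past the threshold, with a difference of 0.38 on the log2 scale (limma adjusted p = 0.0248), higher after CD40L than after LPS in all 3 batches. The difference did not pass in 9 of 18 alternatives.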

How the results depend on the processing

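MRPL39 and MRPS26 passed after CD40L under all 18 alternatives and MRPL34 under 17, the exception being omission of batch 1 (0.40, adjusted p = 0.0503). The count of 5 members higher after CD40L was 3 with no replicate block, 3 with the block as a random effect, 3 with only CD40L and control arrays fitted, and 9 with the probe set of largest change, and ran from 2 to 5 as batches or arrays were left out. MRPS2 and MRPL37 were those lost without the block (adjusted p = 0.242 and 0.0863). The count of members lower after CD40L was 5 with quantile normalisation and 0 otherwise, and the median log2 fold change was then 0.0065. As arrays were left out this median ran from 0.032 (without the CD40L array of batch 2) to 0.11 (without that of batch 3). The 1 member higher after LPS, MRPL39, was not past the threshold without batch 1, without batch 3 or without the LPS array of either (counts from 0 to 1), and the count was 2 with the probe set of largest change, where MRPS25 turned to 0.29. The 1 member higher for CD40L minus LPS was lost (count 0) with no replicate block and with the block as a random effect, the count was 2 with only these groups fitted (MRPL34 and MRPL39), and it ran from 0 to 1 as arrays were left out. The causes were not tested.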
